A study of Mus musculus with 6 samples.

Results

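Serotonin, dopamine, noradrenaline, histamine, acetylcholine, adenosine and ATP reach hypothalamic neurons as modulators, and their receptors set how a neuron answers to arousal, stress, sleep need and temperature. The receptors analysed here were the rows of the deposited expression table whose gene symbols start with Htr (serotonin), Drd (dopamine), Adra or Adrb (adrenergic), Hrh (histamine), Chrm (muscarinic acetylcholine), Chrna or Chrnb (nicotinic acetylcholine), Adora (adenosine), P2rx or P2ry (ATP and related nucleotides), each followed by its subtype. This rule found 46 of 13724 listed gene entries, in 10 families. Wild type C57Bl6/J mice, with no transgene named in the labels, went through 3 numbered warm challenges. The anterior hypothalamus was dissected from 0.5 mm brain sections, and the labels call the tissue preoptic neurons. Each challenge gave an immunoprecipitate (IP) of RNA bound to ribosomes with phosphorylated S6 (sites 244 and 247), a mark that follows neuronal activity, and an input of total RNA, so that there were 3 IP and 3 input libraries. Both groups were warm-challenged, so a difference between them cannot be tied to warmth, and the number of mice behind a library is not given in the labels.

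Most of these receptors couple to G proteins. Receptors on Gs raise cyclic AMP, those on Gi lower it, and those on Gq release calcium from stores. Nicotinic and P2X subunits and Htr3a instead form channels that open when the ligand binds. Monoamine and purine receptors are also made by glia and vessels, and P2ry12 is a standard marker of microglia. In the preoptic area, serotonin, noradrenaline, dopamine, histamine, acetylcholine and adenosine have each been linked to control of body temperature or sleep, which is background to these values and not a result of them.

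The values were RPKM (reads scaled to gene length and to library size), which keep no read count, so the depth of each library is unknown. Summed RPKM lay between 374708 and 496125 in IP and between 384389 and 476059 in input. Spearman correlations across the listed genes were 0.931 to 0.961 among IP libraries, 0.962 to 0.984 among inputs and 0.921 to 0.953 between the fractions. The IP of challenge 1 stood apart from the other 5 libraries on the second principal component (26.0% of the variance), at 49.0 against -19.9 to 10.01. The tissue carried its labelled neuronal markers: 8 of them summed to 3470 to 7082 RPKM in IP and 4081 to 5485 RPKM in input. Snap25 alone held on average 68.2% of this sum in IP and 70.4% in input. Of the 8, 6 had a log2 fold above 0 and 2 below, and 0 were called by limma. Only 1, Nefl, had an unadjusted p under 0.05 (log2 fold 0.82, adjusted p = 0.0976), and Tubb3 came next (0.52, adjusted p = 0.301). The libraries also held glial transcripts. The 10 oligodendrocyte markers summed to 373 to 554 RPKM in IP and 1105 to 1219 RPKM in input, and 8 of the 10 were called lower in IP, from Cldn11 (log2 fold -1.02, adjusted p = 0.0427) to Ermn (-3.35, adjusted p = 0.00385). Of 15 activity-regulated genes, 11 were called higher in IP, and the 3 hemoglobin genes tested, Hba-a1, Hba-a2 and Hbb-b1, were called higher too. Of 4 oligodendrocyte precursor markers 1, Gpr17, was called higher (log2 fold 1.36, adjusted p = 0.0433). With every listed gene tested the Gpr17 call ended (limma adjusted p = 0.0506). The other 3 had folds below 0, from -0.04 (Vcan) to -0.51 (Lhfpl3), and did not pass. The 1 endothelial marker listed was too low to test. A bulk library does not separate fewer cells of a type from less RNA per cell.

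No receptor was called higher in IP. Of the 46 members, 32 had at least 1 RPKM in 3 or more libraries and were tested, and of these 0 were called higher, 1 lower and 31 did not pass (limma, adjusted p under 0.05 over all genes tested). Over all 12328 genes tested, 0.892% were called higher and 3.29% lower in IP. The single call is 3.13% of the members tested, near the 4.19% of all genes called in either direction. At an unadjusted p under 0.05 there were 5 members, or 15.6% of those tested, against 24.4% of all genes tested. The median log2 fold of the 32 members, IP over input, was -0.09, and that of all genes tested was -0.18. Over all 46 members with no filter the median was -0.14, beside -0.17 for all listed genes. The median of all genes thus lay below 0 on this scale, and after median scaling the medians were 0.09 for the members and -0.01 for all genes.

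**Figure D1:**
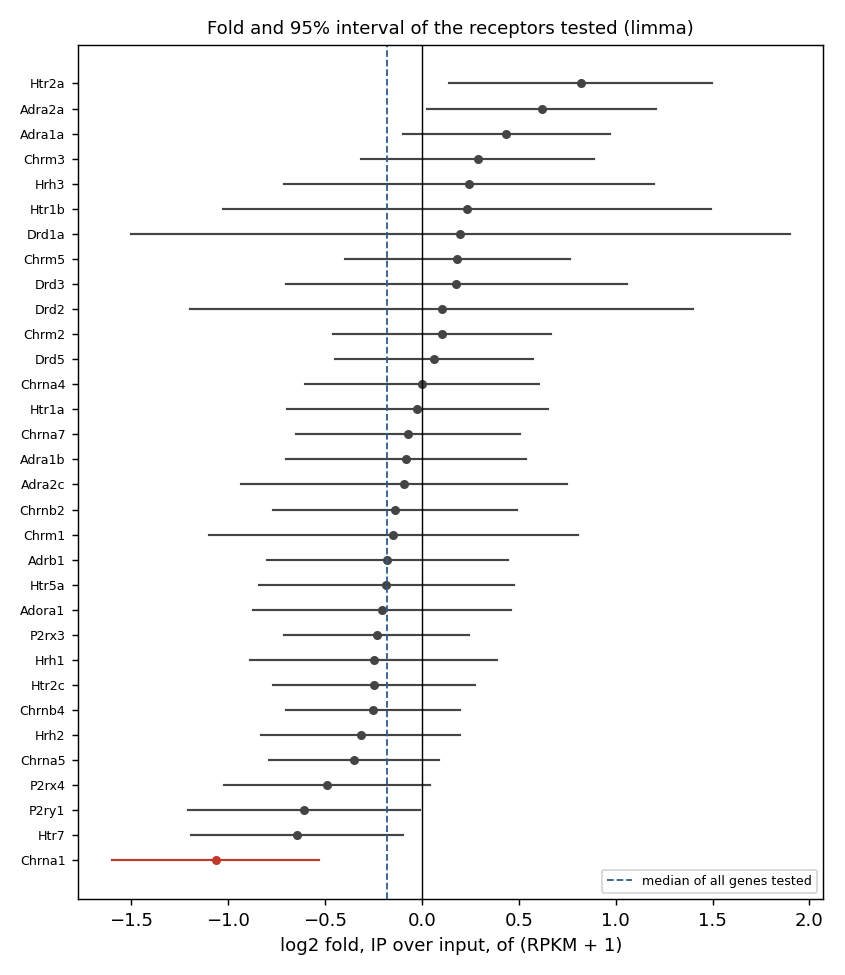
Log2 fold of IP over input, on the scale of RPKM + 1, for the 32 receptors tested; points are limma estimates, bars their 95% intervals, and the dashed line is the median of all genes tested (-0.18). Chrna1, in red, is the member called lower (-1.06), and the intervals of Drd1a and Drd2 are among the widest.

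Counts of libraries, with no model, were also near those of all genes for lower values. In 10 of 46 members every IP value was below every input value, which is 21.7% of the members and 23.5% of all listed genes. In 1 member, Htr2a, every IP value was above every input value, which is 2.17% of the members against 6.46% of all listed genes. By pairs of the same challenge, 18 members were lower in IP in all 3 pairs (39.1%, against 37.5% of listed genes) and 3 were higher in all 3 pairs (6.52%, against 13.4%). The members also varied more among IP libraries than among inputs. The median SD of log2(RPKM + 1) was 0.39 in IP and 0.26 in input over the 32 members tested, and 0.34 and 0.23 over all genes tested.

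The receptors were transcripts of low to moderate level. The mean over 6 libraries had a median of 1.76 RPKM over the 46 members, against 8.37 RPKM over all listed genes. Hrh3 ranked first, followed by Htr1a, Htr2c and Drd2, and Htr6 had the lowest level. Neighbours in this order, such as Hrh3 and Htr1a, overlapped in both fractions and cannot be ranked apart. The 14 members not tested included Adra2b, Chrm4, Chrna2, Chrnb1, Htr1d, Htr1f, Htr3a, Htr4, Htr6, P2rx6, P2rx7, P2ry12 and P2ry4. In RefSeq the spans of 20 members overlap another gene, which for Chrna1 is Gm30940, not a coding gene. The spans of 9 members overlap another coding gene, among them Adora1, Chrm4, Chrm5, Chrnb2, P2rx3 and P2rx4. Without strand, reads in such overlaps cannot be told apart. With no filter, none of the 14 untested members was called either, and their log2 folds lay between -0.87 (P2ry12) and 0.03 (Chrnb1).

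**Figure D2:**
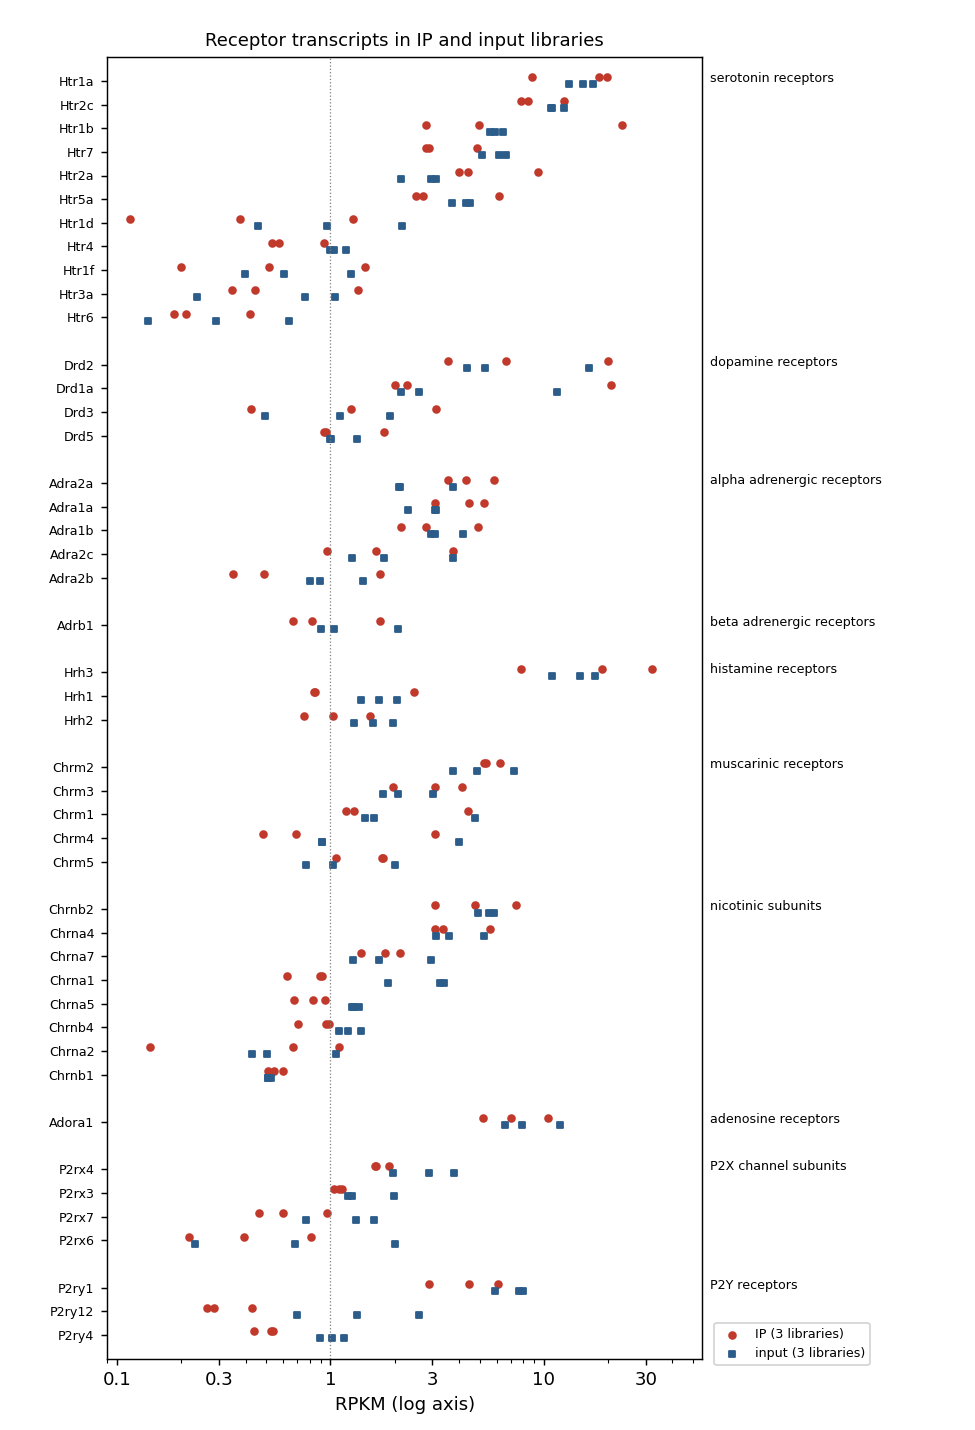
RPKM (log axis) of the receptors reported here in the 3 IP libraries (circles) and the 3 input libraries (squares), grouped by family and ordered within it by mean level; the dotted line marks 1 RPKM. IP circles of P2ry4, P2ry12 and Chrna1 lie wholly to the left of the input squares, those of Htr2a to the right, and in most members the circles and squares overlap.

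The nicotinic receptor held the 1 call. Chrna1 encodes the alpha subunit of the muscle-type nicotinic receptor, best known from the neuromuscular junction. It stood at 0.893, 0.914 and 0.628 RPKM in the IP of challenges 1, 2 and 3, against 3.42, 3.26 and 1.86 RPKM in their inputs. All 3 IP values were below 1 RPKM and all inputs above it, with no overlap. Chrna1 averaged 0.812 ± 0.159 RPKM in IP and 2.85 ± 0.856 RPKM in input (SD, n = 3 each). On the log2(RPKM + 1) scale that was a fold of -1.06, with an SE of 0.24, a limma adjusted p of 0.0427 and a 95% interval of -1.60 to -0.53. It passed the filter only through its inputs, since no IP value reached 1 RPKM, but with no filter the adjusted p was 0.0419. With no filter 3.34% of all genes were called (0.721% higher, 2.62% lower), and with the challenge as a block 5.32% (1.33% higher, 3.99% lower; Chrna1 adjusted p = 0.0408). The call ended after median scaling, under which 1.76% of all genes were called (0.925% higher, 0.835% lower), with Chrna1 at a log2 fold of -0.89 and an adjusted p of 0.0896. It also ended after quantile normalization (-0.76, adjusted p = 0.122). Without the IP of challenge 2 or 3 the call ended too (adjusted p = 0.0945 and 0.105), as it did without any 1 pair (0.111 to 0.352) and, in fits with no filter, without any 1 input (adjusted p = 0.0562 to 0.159). In the omissions of 1 library or pair the fold stayed between -0.95 and -1.26, while genes called lower over the whole table came to 51 and 65 without the IP of challenge 2 or 3, against 406 with all libraries. The direction was the same in all 20 alternatives in which Chrna1 was tested, with an adjusted p of 0.0331 to 0.352.

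Chrnb1 encodes another subunit of the muscle-type receptor. It stood at 0.599, 0.543 and 0.511 RPKM in IP and 0.524, 0.510 and 0.509 RPKM in input, with a no-filter log2 fold of 0.03 (adjusted p = 0.916). Chrna5 and Chrnb4, subunits of ganglionic and habenular receptors, also lay below their inputs in every library. Chrna5 had 0.939, 0.674 and 0.828 RPKM in IP, against 1.26, 1.29 and 1.37 RPKM in input, a log2 fold of -0.35 (adjusted p = 0.310). Chrnb4 averaged 0.877 ± 0.153 RPKM in IP and 1.24 ± 0.148 RPKM in input (log2 fold -0.25, adjusted p = 0.476). Like Chrna1, both passed the filter only through their inputs. In the RefSeq annotation the span of Chrna5 overlaps that of another nicotinic subunit gene, and how shared reads were counted is not stated in the labels.

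Neither Chrna4 nor Chrnb2, whose products build the main nicotinic receptor of brain neurons, was called, and their intervals allow a fold in either direction. Chrna4 stood at 3.09, 3.36 and 5.61 RPKM in IP and 3.60, 3.118 and 5.26 RPKM in input, a log2 fold of -0.0018 (adjusted p = 0.998, 95% interval -0.61 to 0.60). Chrnb2 stood at 7.42, 3.08 and 4.73 RPKM in IP and 4.89, 5.54 and 5.84 RPKM in input (log2 fold -0.14, adjusted p = 0.807, 95% interval -0.77 to 0.49). Its IP values lay on both sides of the inputs. Chrna7, which forms channels of 1 kind of subunit with high calcium flow, averaged 1.77 ± 0.363 RPKM in IP and 1.97 ± 0.871 RPKM in input (adjusted p = 0.904). Summed over 8 listed subunits, nicotinic transcripts came to 11.8 to 16.0 RPKM in IP and 16.9 to 18.5 RPKM in input, without overlap. An exact two-sided permutation test gave p = 0.10, the smallest that 3 against 3 libraries allow (adjusted p = 0.333 over 10 families). With library medians set equal, p was 0.700. The sum included Chrna1, the member called, and without Chrna1 the sums of IP and input overlapped.

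Among 8 listed chaperones and toxin-like regulators of nicotinic receptors, 1 was called lower and 0 higher. Lypd6, a membrane-anchored protein that acts on nicotinic receptors, averaged 7.18 RPKM in IP and 15.4 RPKM in input (log2 fold -1.01, adjusted p = 0.0426), and its call ended after median scaling (adjusted p = 0.0813). Of 5 listed acetylcholine enzymes and transporters none passed by limma, 1 having an unadjusted p under 0.05. The enzyme that degrades acetylcholine, Ache, was at a log2 fold of 0.48 (adjusted p = 0.185), and Slc44a1, a choline transporter, -0.26 (adjusted p = 0.605).

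P2Y and P2X receptors had the lowest family medians of the log2 fold with no filter, -0.61 and -0.37, with no call. P2ry1, a Gq-coupled ADP receptor of neurons and astrocytes, stood at 2.89, 4.47 and 6.11 RPKM in IP, against 7.94, 5.91 and 7.65 RPKM in input. It was below its input in each pair, although the IP of challenge 3 exceeded the input of challenge 2. The log2 fold was -0.61 (SE 0.27, adjusted p = 0.199). P2rx4, an ATP-gated channel of microglia and some neurons, stood at 1.62, 1.63 and 1.89 RPKM in IP and 3.79, 2.89 and 1.97 RPKM in input (log2 fold -0.49, adjusted p = 0.238). Its fractions did not overlap, but the pair of challenge 3 differed by -0.04 on the log2 scale. P2rx3, an ATP channel best known from sensory neurons, averaged 1.09 ± 0.0465 RPKM in IP and 1.49 ± 0.436 RPKM in input.

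P2ry12, the ADP receptor that marks microglia, had the lowest fold of the members not tested. It stood at 0.265, 0.285 and 0.428 RPKM in IP, against 2.61, 0.694 and 1.33 RPKM in input, with no overlap. With no filter its log2 fold was -0.87 (adjusted p = 0.0909). In RefSeq its span overlaps that of the coding gene Med12l, so reads shared with that gene cannot be told apart here. P2ry4, a nucleotide receptor, averaged 0.503 ± 0.0548 RPKM in IP and 1.02 ± 0.135 RPKM in input, again with no overlap (no-filter log2 fold -0.43, adjusted p = 0.133). The 10 listed microglia markers summed to 15.3 to 20.6 RPKM in IP and 18.5 to 38.4 RPKM in input, and 0 of the 6 tested passed (1 with an unadjusted p under 0.05). The defining markers Cx3cr1 and Csf1r were too low to test, with means of 0.599 and 0.621 RPKM in IP and 1.23 and 1.05 RPKM in input. Of the 6 tested, 0 had a fold above 0 (0%, against 34.8% of all genes tested), with a median log2 fold of -0.35, beside -0.18 for all genes tested. Ctss averaged 1.14 RPKM in IP and 2.93 RPKM in input (log2 fold -0.84, limma adjusted p = 0.205). Aif1 was at a log2 fold of -0.59 (adjusted p = 0.296). C1qb, in the same list, averaged 3.05 RPKM in IP and 3.03 RPKM in input. By pairs, 5 of the 10 were lower in IP in all 3 (50%, against 37.5% of all listed genes). In all 3 pairs 0 were higher, against 13.4% of all listed genes. The part of microglia in the P2ry12 and P2rx4 values was not tested.

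Adora1, the Gi-coupled adenosine receptor through which adenosine quiets neurons, stood at 5.17, 6.97 and 10.5 RPKM in IP, against 6.60, 7.87 and 11.8 RPKM in input. It was slightly below its input in each pair, and both fractions covered nearly the same range (log2 fold -0.21, adjusted p = 0.716). Summed levels were 3.49 to 4.50 RPKM in IP and 5.05 to 8.32 RPKM in input for P2X subunits, and 3.69 to 6.98 RPKM in IP and 7.62 to 11.4 RPKM in input for P2Y receptors. Neither family overlapped between fractions, each at the smallest exact permutation p of 0.10 (adjusted p = 0.333). With library medians set equal, the exact permutation p was 0.200 for both. Of 8 purine enzymes and transporters tested none passed by limma, and 4 had an unadjusted p under 0.05. Slc29a3, a nucleoside transporter of lysosomes, stood at a log2 fold of -0.99 (adjusted p = 0.0577) and passed with the warm challenge as a block (adjusted p = 0.0442), and Enpp2, which makes lysophosphatidic acid, at -0.74 (adjusted p = 0.113).

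**Figure D3:**
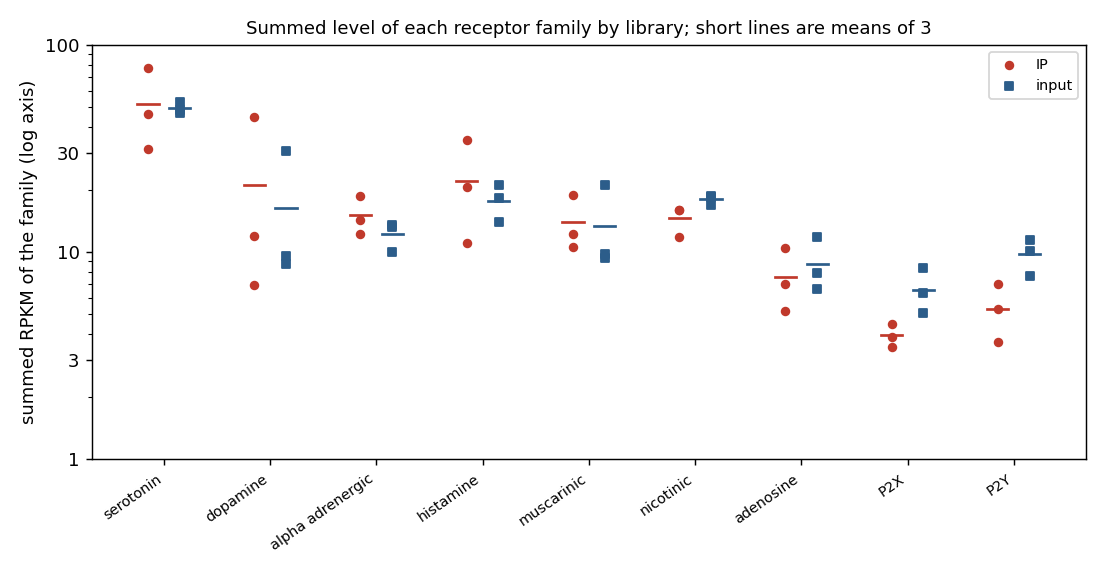
Summed RPKM (log axis) of 9 receptor families in the 3 IP libraries (circles) and the 3 inputs (squares), with short lines at the means. IP lies wholly below input in the nicotinic, P2X and P2Y families, and the dopamine family spans 6.91 to 44.6 RPKM in IP and 8.78 to 30.8 RPKM in input. The nicotinic sum includes Chrna1, without which IP and input overlap.

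The highest fold of any member belonged to Htr2a, a Gq-coupled serotonin receptor that excites neurons. It stood at 4.43, 4.01 and 9.36 RPKM in IP, against 2.95, 2.15 and 3.118 RPKM in input. Every IP value exceeded every input, and the IP of challenge 3 was the highest. The log2 fold was 0.82 (SE 0.30, adjusted p = 0.139, or 0.0826 with the warm challenge as a block), so Htr2a was not called. Without the IP of challenge 3 the fold was 0.49. Htr2c, the related receptor known for its part in feeding, averaged 9.56 ± 2.52 RPKM in IP and 11.3 ± 0.874 RPKM in input (log2 fold -0.25, adjusted p = 0.551). The difference between these related receptors was not tested.

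Htr1a, the Gi-coupled receptor that hyperpolarises neurons, led its family in level. It stood at 8.83, 19.8 and 18.05 RPKM in IP and 13.1, 15.2 and 17.0 RPKM in input (log2 fold -0.02, adjusted p = 0.977). It held 31.5 ± 10.3% of the summed serotonin receptor RPKM in IP and 30.5 ± 3.03% in input (SD, n = 3 each). Htr1b, a Gi-coupled receptor of axon terminals, had 2.79, 4.95 and 23.2 RPKM in IP, against 6.45, 5.59 and 5.87 RPKM in input. The IP of challenge 3 was thus far above the other 5 libraries, while the inputs differed little, and by pairs 1 of 3 was higher in IP, by 1.82 on the log2 scale in challenge 3 (log2 fold over all libraries 0.23, adjusted p = 0.841).

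Htr7, a Gs-coupled receptor linked to circadian and temperature responses, was at the opposite end. It stood at 2.81, 4.87 and 2.91 RPKM in IP, against 6.62, 6.16 and 5.12 RPKM in input, without overlap (log2 fold -0.64, SE 0.24, adjusted p = 0.147). Htr5a averaged 3.79 ± 2.03 RPKM in IP and 4.17 ± 0.405 RPKM in input. The channel subunit Htr3a and the receptors Htr1d, Htr1f, Htr4 and Htr6 had means of 0.271 RPKM (Htr6) to 0.719 RPKM (Htr1f) in IP and 0.357 RPKM (Htr6) to 1.196 RPKM (Htr1d) in input.

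Of the adrenergic receptors, Adra2a and Adra1a had the largest positive folds. Adra2a, a Gi-coupled receptor that restrains noradrenaline release and neuronal firing, stood at 3.54, 4.32 and 5.86 RPKM in IP, against 3.77, 2.11 and 2.09 RPKM in input. The pair of challenge 1 went the other way from those of challenges 2 and 3 (log2 fold 0.62, SE 0.26, adjusted p = 0.188). Adra1a, a Gq-coupled receptor that depolarises neurons, stood at 4.45, 3.10 and 5.21 RPKM in IP, against 3.09, 2.32 and 3.121 RPKM in input. It was above its input in each pair, and 1 IP value lay among the inputs (log2 fold 0.44, SE 0.24, adjusted p = 0.296). Adra2a held 30.1 ± 1.26% of the alpha adrenergic RPKM in IP and 21.7 ± 6.53% in input, without overlap (exact permutation p = 0.10, adjusted p = 0.450 over 9 families).

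The folds of Adra1b, Adra2c and Adrb1 were near 0 relative to their errors. Adra1b averaged 3.28 ± 1.46 RPKM in IP and 3.41 ± 0.671 RPKM in input, and Adra2c 2.123 ± 1.46 RPKM in IP and 2.27 ± 1.32 RPKM in input. Adrb1, a Gs-coupled receptor, stood at 0.669, 1.71 and 0.823 RPKM in IP and 1.04, 0.900 and 2.08 RPKM in input (log2 fold -0.18, adjusted p = 0.739). The 4 listed pericyte and muscle markers summed to 1.98 to 2.94 RPKM in IP and 5.54 to 7.46 RPKM in input, and 1 of the 2 tested, Rgs5, was called lower (log2 fold -1.32, adjusted p = 0.0305). The 10 astrocyte markers summed to 294 to 320 RPKM in IP and 314 to 428 RPKM in input. With library medians set equal, these sums averaged 332 RPKM in IP and 333 RPKM in input. Aldoc alone held on average 70.0% of the sum in IP and 66.1% in input, so the sums mainly follow that gene. None of the 10 was called by limma, and 4 had an unadjusted p under 0.05. A fold above 0 was seen in 2 (20%, against 34.8% of all genes tested). Aqp4 passed with the block (limma adjusted p = 0.0616, or 0.0400 with it). Gfap averaged 4.72 RPKM in IP and 10.2 RPKM in input (log2 fold -1.07, adjusted p = 0.0834). By contrast, Aldh1l1 was above its input in all 3 pairs (log2 fold 0.30). The part of these cell types in the adrenergic values was not tested.

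Hrh3, a Gi-coupled histamine receptor that curbs histamine and other transmitter release, had the highest mean over the 6 libraries, while in input alone its mean was 14.4 RPKM and that of Htr1a 15.1 RPKM. It stood at 7.80, 18.7 and 32.1 RPKM in IP and 14.8, 10.9 and 17.4 RPKM in input. The IP of challenge 1 lay below all inputs and the other two above them, so the pairs disagreed in direction (log2 fold 0.24, SE 0.43, adjusted p = 0.773). Hrh2, which is Gs-coupled, stood at 0.752, 1.03 and 1.54 RPKM in IP and 1.28, 1.59 and 1.95 RPKM in input (log2 fold -0.32, adjusted p = 0.433). Hrh1, which is Gq-coupled and excitatory, averaged 1.38 ± 0.932 RPKM in IP and 1.71 ± 0.332 RPKM in input (adjusted p = 0.638).

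Among muscarinic receptors, Chrm3, which couples to Gq, had the largest fold. It stood at 1.96, 3.08 and 4.14 RPKM in IP and 2.07, 1.76 and 3.01 RPKM in input (log2 fold 0.29, adjusted p = 0.550). Chrm2, a Gi-coupled receptor often found on cholinergic terminals, led the family in level with 5.25, 5.35 and 6.21 RPKM in IP and 3.76, 4.87 and 7.27 RPKM in input (log2 fold 0.10, adjusted p = 0.843). In both receptors the fractions overlapped. Chrm5 averaged 1.53 ± 0.398 RPKM in IP and 1.26 ± 0.649 RPKM in input.

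Values of 3 of the 4 dopamine receptors were spread more widely over the challenges than between the fractions. Drd1a, listed as Drd1 in RefSeq, is the Gs-coupled receptor of direct-pathway striatal neurons and other forebrain cells. It stood at 2.01, 2.29 and 20.6 RPKM in the IP of challenges 1, 2 and 3, and 2.59, 2.15 and 11.5 RPKM in their inputs. Drd2, its Gi-coupled counterpart, stood at 3.54, 6.62 and 19.9 RPKM in IP and 4.37, 5.27 and 16.3 RPKM in input. Drd3, also Gi-coupled, had 0.426, 1.24 and 3.13 RPKM in IP and 0.494, 1.10 and 1.91 RPKM in input. In all 3 receptors both libraries of challenge 3 were above the other 4. Drd5, the second Gs-coupled dopamine receptor, lacked this pattern, with 0.935, 1.79 and 0.953 RPKM in IP and 1.33, 1.00 and 0.992 RPKM in input.

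**Figure D4:**
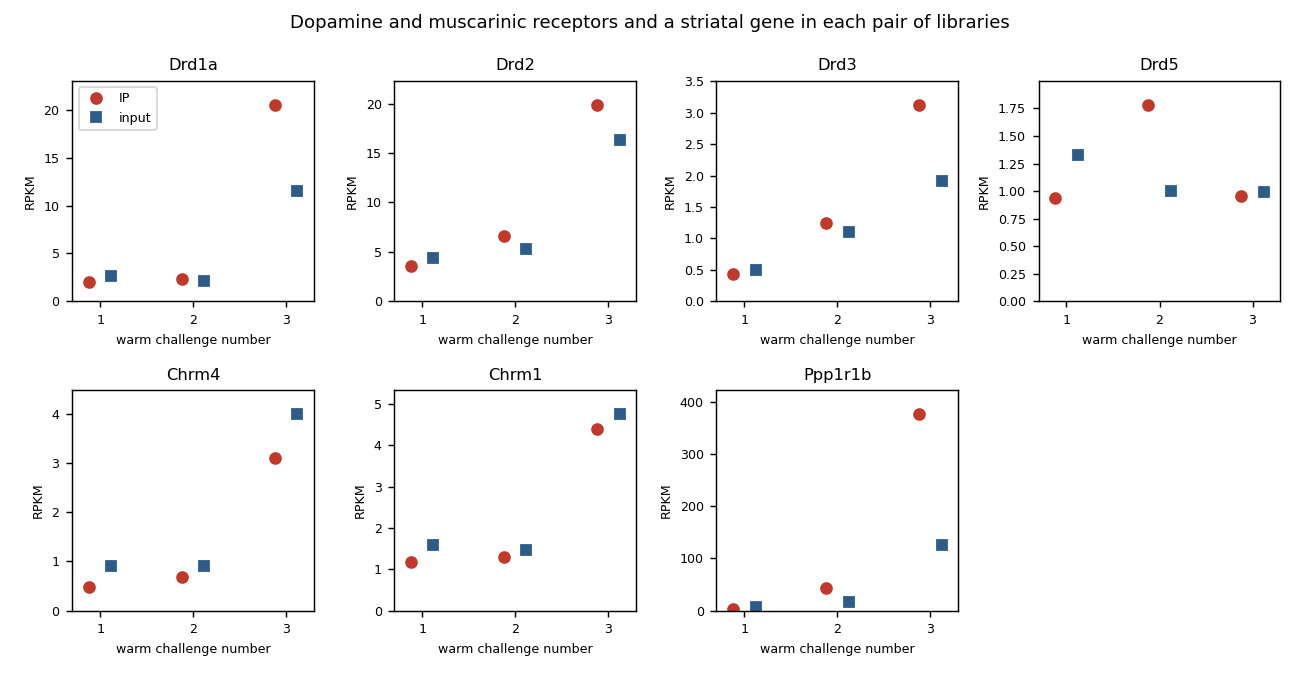
RPKM of 4 dopamine receptors, 2 muscarinic receptors and the striatal gene Ppp1r1b in the IP (circles) and input (squares) of each numbered warm challenge; the number names a replicate and is not an order. Both libraries of challenge 3 are above the other 4 for every gene shown except Drd5.

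The log2 fold was 0.20 for Drd1a (adjusted p = 0.909, 95% interval -1.5 to 1.90) and 0.10 for Drd2 (adjusted p = 0.941, 95% interval -1.19 to 1.40). With the challenge as a block, which takes out this spread, the SE was 0.25 for Drd1a and 0.20 for Drd2, against 0.76 and 0.58 without it, and neither passed (adjusted p = 0.636 and 0.770). By pairs of challenges 1, 2 and 3, Drd1a differed by -0.25, 0.06 and 0.78 and Drd2 by -0.24, 0.28 and 0.27 on the log2 scale. Without the pair of challenge 3 the log2 fold was -0.10 for Drd1a and 0.02 for Drd2.

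The pattern was not limited to dopamine receptors. In 14 of 46 members, or 30.4%, both libraries of challenge 3 were above the other 4, against 8.03% of all listed genes. They were Drd1a, Drd2 and Drd3, the muscarinic receptors Chrm1, Chrm2 and Chrm4, the Gi-coupled Adora1, Adra2b, Adra2c and Htr1d, the serotonin receptors Htr2c and Htr6, and the nicotinic subunits Chrna2 and Chrna4. Among them Adra2b, Chrm4, Chrna2, Htr1d and Htr6 were too low to be tested by limma. Htr2c led by little, with 12.4 RPKM in the input of challenge 3 against 10.9 RPKM in that of challenge 2. Chrm4, a Gi-coupled receptor abundant in striatal neurons, had 0.482, 0.693 and 3.10 RPKM in IP and 0.910, 0.913 and 3.996 RPKM in input. Chrm1, a Gq-coupled receptor of forebrain principal neurons, had 1.18, 1.30 and 4.39 RPKM in IP and 1.60, 1.46 and 4.75 RPKM in input. By coupling class, the 14 included 8 of 14 Gi-coupled members, 2 of 8 on Gs, 2 of 9 on Gq and 2 of 13 channel subunits. A limma F test of the challenge, chosen after these values were seen, called 0 of 12328 genes (0% of all genes; smallest adjusted p = 0.0601). At an unadjusted p under 0.05 it had 6 of 32 members, or 18.8%, led by Drd1a (adjusted p = 0.169) and Drd2 (adjusted p = 0.182), and 1289 genes, or 10.5%.

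Genes of striatal spiny neurons were high in the same libraries. This list was chosen after the dopamine receptor values were seen and gets no test. In 14 of its 16 listed genes both libraries of challenge 3 were above the other 4, and the list summed to 163, 351 and 1711 RPKM in the IP of challenges 1, 2 and 3 and 213, 232 and 569 RPKM in their inputs. Ppp1r1b, which encodes the dopamine-regulated phosphatase inhibitor DARPP of spiny neurons, stood at 3.23, 42.7 and 376 RPKM in IP and 7.60, 16.1 and 126 RPKM in input. A list of 6 hypothalamic genes, among them Oxt and Gal, was likewise chosen after values were seen and gets no test. It summed to 139, 108 and 48.4 RPKM in IP and 218, 130 and 24.3 RPKM in input, lowest in challenge 3 in both fractions. Oxt and Gal carried this sum, and Pmch, in the same list, went the other way, with 0.594, 2.31 and 3.20 RPKM in IP and 1.75, 3.87 and 5.08 RPKM in input. The part of the dissected area in the receptor values was not tested.

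Grouped by coupling and with no filter, the median log2 fold was -0.24 for 8 listed members on Gs, -0.08 for 9 on Gq, -0.04 for 14 on Gi and -0.23 for 13 channel subunits, beside -0.17 for all listed genes. IP values lay wholly below their inputs in 5 of the 13 channel subunits (38.5%, against 23.5% of all listed genes), and Chrnb1 and Htr3a had no-filter folds of 0.03 and 0.0091. The signs depend on the scaling. Over the members tested, the medians after median scaling were -0.0035 on Gs, 0.09 on Gq, 0.28 on Gi and -0.07 for channel subunits. After quantile normalization they were 0.19 on Gs, 0.18 on Gq, 0.32 on Gi and 0.0788 for channel subunits. Of 8 receptor kinases and arrestins, which switch off activated receptors, none was called by limma, and 4 had an unadjusted p under 0.05. All 8 had a fold below 0, as did 8040 of all 12328 genes tested. The folds ran from -0.07 (Adrbk1) to -1.39 (Grk4), and Adrbk2 was at -1.02 (adjusted p = 0.0574). After median scaling Adrbk1 (0.11) and Grk6 (0.10) were above 0 and the others below it. Grk4 passed with the challenge as a block (adjusted p = 0.0345). Of 8 monoamine enzymes and transporters tested none passed, 1 having an unadjusted p under 0.05. Maoa, which degrades serotonin and noradrenaline, was at a log2 fold of -0.63 (adjusted p = 0.165), and Slc18a2, the vesicular monoamine transporter, -0.64 (adjusted p = 0.227). Of the 8, 2 had a fold above 0 (25%, against 34.8% of all genes tested). These were Th at 0.67 (adjusted p = 0.388) and Gch1 at 0.48 (adjusted p = 0.338), each above its input in all 3 pairs.

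The 250 bases before the transcription start are shown for Chrna1, the member called, for P2ry12 and Htr2a, at the low and high ends of the folds, and for Drd2, which followed the challenges. The sequences are from RefSeq (GRCm38.p6, the gene's strand), at chr2:73580339-73580588 (minus) for Chrna1, chr3:59262986-59263235 (minus) for P2ry12, chr14:74640624-74640873 (plus) for Htr2a and chr9:49340153-49340402 (plus) for Drd2. Capitals mark matches, on either strand, to 5 motifs. The cyclic AMP response element (CRE) was searched as TGACGTCA and the AP-1 site as TGANTCA. The GC box was searched as GGGCGG, the TATA box as TATAAA and the E-box as CANNTG.
Chrna1: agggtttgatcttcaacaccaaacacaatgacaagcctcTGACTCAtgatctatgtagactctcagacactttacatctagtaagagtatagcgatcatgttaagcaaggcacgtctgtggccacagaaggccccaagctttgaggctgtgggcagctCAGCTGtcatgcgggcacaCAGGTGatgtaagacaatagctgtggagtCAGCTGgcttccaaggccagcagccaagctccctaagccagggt
P2ry12: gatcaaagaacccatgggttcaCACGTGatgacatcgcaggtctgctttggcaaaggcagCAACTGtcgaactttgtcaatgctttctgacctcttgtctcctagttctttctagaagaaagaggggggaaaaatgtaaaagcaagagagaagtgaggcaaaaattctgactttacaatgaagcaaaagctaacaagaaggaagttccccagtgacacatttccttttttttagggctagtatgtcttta
Htr2a: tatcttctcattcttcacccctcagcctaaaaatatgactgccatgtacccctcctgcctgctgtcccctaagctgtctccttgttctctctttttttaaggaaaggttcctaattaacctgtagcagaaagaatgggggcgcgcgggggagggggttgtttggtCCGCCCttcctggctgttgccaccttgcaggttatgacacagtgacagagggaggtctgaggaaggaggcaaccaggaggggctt
Drd2: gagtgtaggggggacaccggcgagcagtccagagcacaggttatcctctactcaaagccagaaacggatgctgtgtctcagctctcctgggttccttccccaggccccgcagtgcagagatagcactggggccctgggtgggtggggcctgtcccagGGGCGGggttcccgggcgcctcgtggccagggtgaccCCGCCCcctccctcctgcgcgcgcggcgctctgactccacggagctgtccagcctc

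The Chrna1 window held 3 E-boxes, starting 92, 73 and 44 bases before the start, and 1 AP-1 match at 211 bases. E-boxes in the Chrna1 promoter are textbook sites of muscle-specific bHLH factors. The P2ry12 window held 2 E-boxes, that of Htr2a 1 GC box and that of Drd2 2 GC boxes. Promoters were found for 39 of 46 members, in 50 windows. An AP-1 match stood in 12% of these windows, against 6.75% of all 32851 windows. A GC box stood in 54.0% against 32.7%, an E-box in 48.0% against 66.2%, a TATA box in 6% against 12.4% and a CRE in 0% against 1.55%. These are descriptions of letters in a window, and no binding was measured.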

How the data were processed

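RNA was measured in 3 IP and 3 input libraries. The authors deposited linear RPKM per gene, per the file headers; per the submitters' processing notes the genome build was mm9. Aligner, counter, annotation and strand: not given in the sources used here. Every listed value lies above 0.1 RPKM. Values were analysed as log2(RPKM + 1), which understates the folds of low genes, keeping the 12328 genes that reached 1 RPKM in 3 of the 6 libraries. IP was compared with input by limma 3.58.1 (trend, no block, two-sided) in R 4.3.3, with Benjamini-Hochberg adjustment over all genes tested and a threshold of 0.05. The script was tested on simulated data. Family sums and shares had exact permutation tests over libraries. Members, lists and tests were chosen with earlier results of these data known. The rule for naming took members called with or without the block, and each family's highest level and largest absolute fold. It also took the 5 highest and 5 lowest folds and, from each other list, its calls or, with none, its 2 smallest p-values. Longer lists and the striatal and hypothalamic lists are shown by examples, and other names were chosen after their values were seen. Alternatives were the block, other pseudocounts (0.1 and 5), filters, scalings, no trend and leaving out libraries. Input and IP of a number were taken as paired from the labels (deviations from group means correlated by 0.05, 0.61 and 0.27 across genes for numbers 1, 2 and 3, and by -0.52 to 0.18 between unlike numbers; the IP of number 1 correlated more with the input of number 3, at 0.18, than with its own). No label says that the challenges were separate animals, so p-values measure the spread between these libraries. Values of some single genes, though counted in the totals, are not reported here. RefSeq (GRCm38) gave names for 46 members, neighbours and promoters, read with Python 3.11.15.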

Additional observations from a re-analysis of the deposited data

How the results depend on the processing

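In 19 settings, the main fit among them, no receptor was called higher in IP. The fits with no filter that left out 1 input, given above for Chrna1, are not among the 19. A filter of 5 RPKM removed Chrna1 before testing (0 members called lower of 10 tested). The 1 lower call ended with median scaling (0 members), quantile normalization (0), and the replicate block with median scaling (0). It held under the other pseudocounts, no filter, no trend and the replicate block, where Chrna1 had an adjusted p of 0.0408 and genes called were 164 higher and 492 lower, against 110 and 406 without the block. The block changed no other receptor call. Leaving out 1 library or 1 pair gave 0 to 1 lower members, 0 higher members, 1 to 443 higher genes, 0 to 1250 lower genes and a median log2 fold of the members of -0.22 to 0.12. Genes called lower were 103 after median scaling, 124 after quantile normalization and 167 with block and median scaling (210 higher). The members' median was 0.0864, 0.17 and 0.0864 in these, against -0.09, so its sign depends on the scaling. Uncalled folds turned sign for Chrnb2 (0.0350 by median scaling, with or without the block, and 0.0887 by quantile normalization), Htr1a (0.15 and 0.11) and Adrb1 (0.19 by quantile normalization). Over the omissions, folds spanned 0 for Adora1 (-0.44 to 0.0093), Adrb1 (-0.52 to 0.11), Chrm2 (-0.0801 to 0.32), Chrnb2 (-0.47 to 0.13), Drd1a (-0.73 to 0.83), Drd2 (-0.51 to 0.63), Hrh3 (-0.20 to 0.79) and Htr1a (-0.23 to 0.32). The causes were not tested. RPKM holds no depth, so counting error at low RPKM is unknown. The pair omissions, the block with scaling and the challenge test were chosen after seeing the data.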
